A study of Mus musculus with 8 samples.

Results

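The genes of the nuclear genome that encode subunits of the oxidative phosphorylation machinery were followed in RNA-seq of the mouse dorsomedial hypothalamus (DMH) after knockdown of Ppp1r17. Members were found by a rule on symbols that uses no measured value, though the group itself was proposed with results of these libraries known. The patterns took Nduf genes of the a, b, c, s and v series, Sdha to Sdhd, Uqcr genes, Cyc1, Cycs, Cox genes of subunits 4 to 8, and Atp5 genes, and left out symbols ending in -ps and a digit. They found 88 of the 55487 Ensembl identifiers, which carry 87 symbols because Atp5o has 2 identifiers. By symbol, 36 belonged to complex I, 4 to complex II, 9 to complex III, 1 was cytochrome c (Cycs), 18 belonged to complex IV and 20 to complex V. The filter on low counts passed 81 of the 88. The other 7 (Cox7b2, Cox8b, Cox8c, Cox6c2, Atp5l2-ps, Atp5c1-ps and the second Atp5o identifier) never exceeded 0.691 CPM (normalised counts scaled to the library total) in a library, and no test was made on them.

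Oxidative phosphorylation passes electrons from NADH and succinate along complexes I, II, III and IV of the inner mitochondrial membrane to oxygen, with cytochrome c as the soluble carrier between complexes III and IV. Complexes I, III and IV pump protons, and complex V, the ATP synthase, uses the proton gradient to make ATP. Complexes I, III, IV and V are built from nuclear and mitochondrial gene products together, and complex II from nuclear products alone. Neurons cover most of their ATP demand this way, and transcripts of the nuclear subunits tend to be short, abundant and present in every cell.

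The 2 groups were a short hairpin RNA against Ppp1r17 (shPpp1r17, genotype Ppp1r17 knockdown), which encodes an inhibitor of protein phosphatases, and a hairpin against firefly luciferase (shfLuc, genotype fLuc knockdown), an insect enzyme with no mouse gene. Each group held 4 libraries of DMH tissue. The sources used here do not give strain, age, sex, the vector and promoter of the hairpin or the cells it reached. Nor do they tie libraries to separate animals, so p-values measure only a spread that may be technical. The comparison asks how the loss of Ppp1r17 affects transcript levels in the DMH.

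Libraries held 23070147 to 33907984 estimated reads, of which the members took 1.99 ± 0.0503% (SD, n = 4) in shfLuc and 2.10 ± 0.0455% (SD, n = 4) in shPpp1r17. Ppp1r17 stood at 147, 161, 161 and 171 CPM in shfLuc libraries 1 to 4 and 87.7, 2.07, 3.10 and 87.2 CPM in shPpp1r17 libraries 1 to 4, so the groups did not overlap (exact two-sided permutation test, p = 0.0286, the smallest that 4 against 4 allows). In the edgeR fit used for the members, Ppp1r17 had a log2 fold change of -1.83 and did not pass (edgeR adjusted p = 0.197). A gene that differs between the knockdown libraries can thus miss the threshold despite a large change. Libraries 2 and 3 of shPpp1r17 retained the least, and they also stood farthest from the shfLuc libraries on the first principal component of all genes, at 46.9 and 46.0 against 16.5 and 2.45 for libraries 1 and 4 (32.3% of the variance). The counts of members and of listed genes past the threshold are given with and without them. Over all 17339 genes tested, edgeR called 588 higher in shPpp1r17 (3.39%) and 462 lower (2.66%), a split that turned to 309 higher and 488 lower with limma on log2(TPM + 1).

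As a group, the nuclear subunit genes stood slightly above control, and a few stood below it in part of the knockdown libraries. Of the 81 tested members, 6 rose (7.41%, beside 3.39% of all genes) and 0 fell (beside 2.66%), and 75 did not pass the test. At an unadjusted p under 0.05 there were 24 higher and 4 lower, beside 2004 higher and 1909 lower of all 17339 genes. Later counts at that cutoff in the same fit are to be read beside these. Neither DESeq2 nor limma voom called a member lower. The median log2 fold change of the members was 0.09, beside 0.00 over all genes, with 62 positive and 19 negative values. That median was 0.00 on log2(TPM + 1) and turned to -0.09 once the trend of each library on gene length and GC content was removed, where the medians of all genes were -0.06 and -0.02. The groups did not overlap, with shPpp1r17 higher, for 16 members (19.8%, beside 7.12% of all genes), and with shPpp1r17 lower for 2, Ndufa4 and Uqcrc1 (beside 6.74%). These shares are a description.

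**Figure D1:**
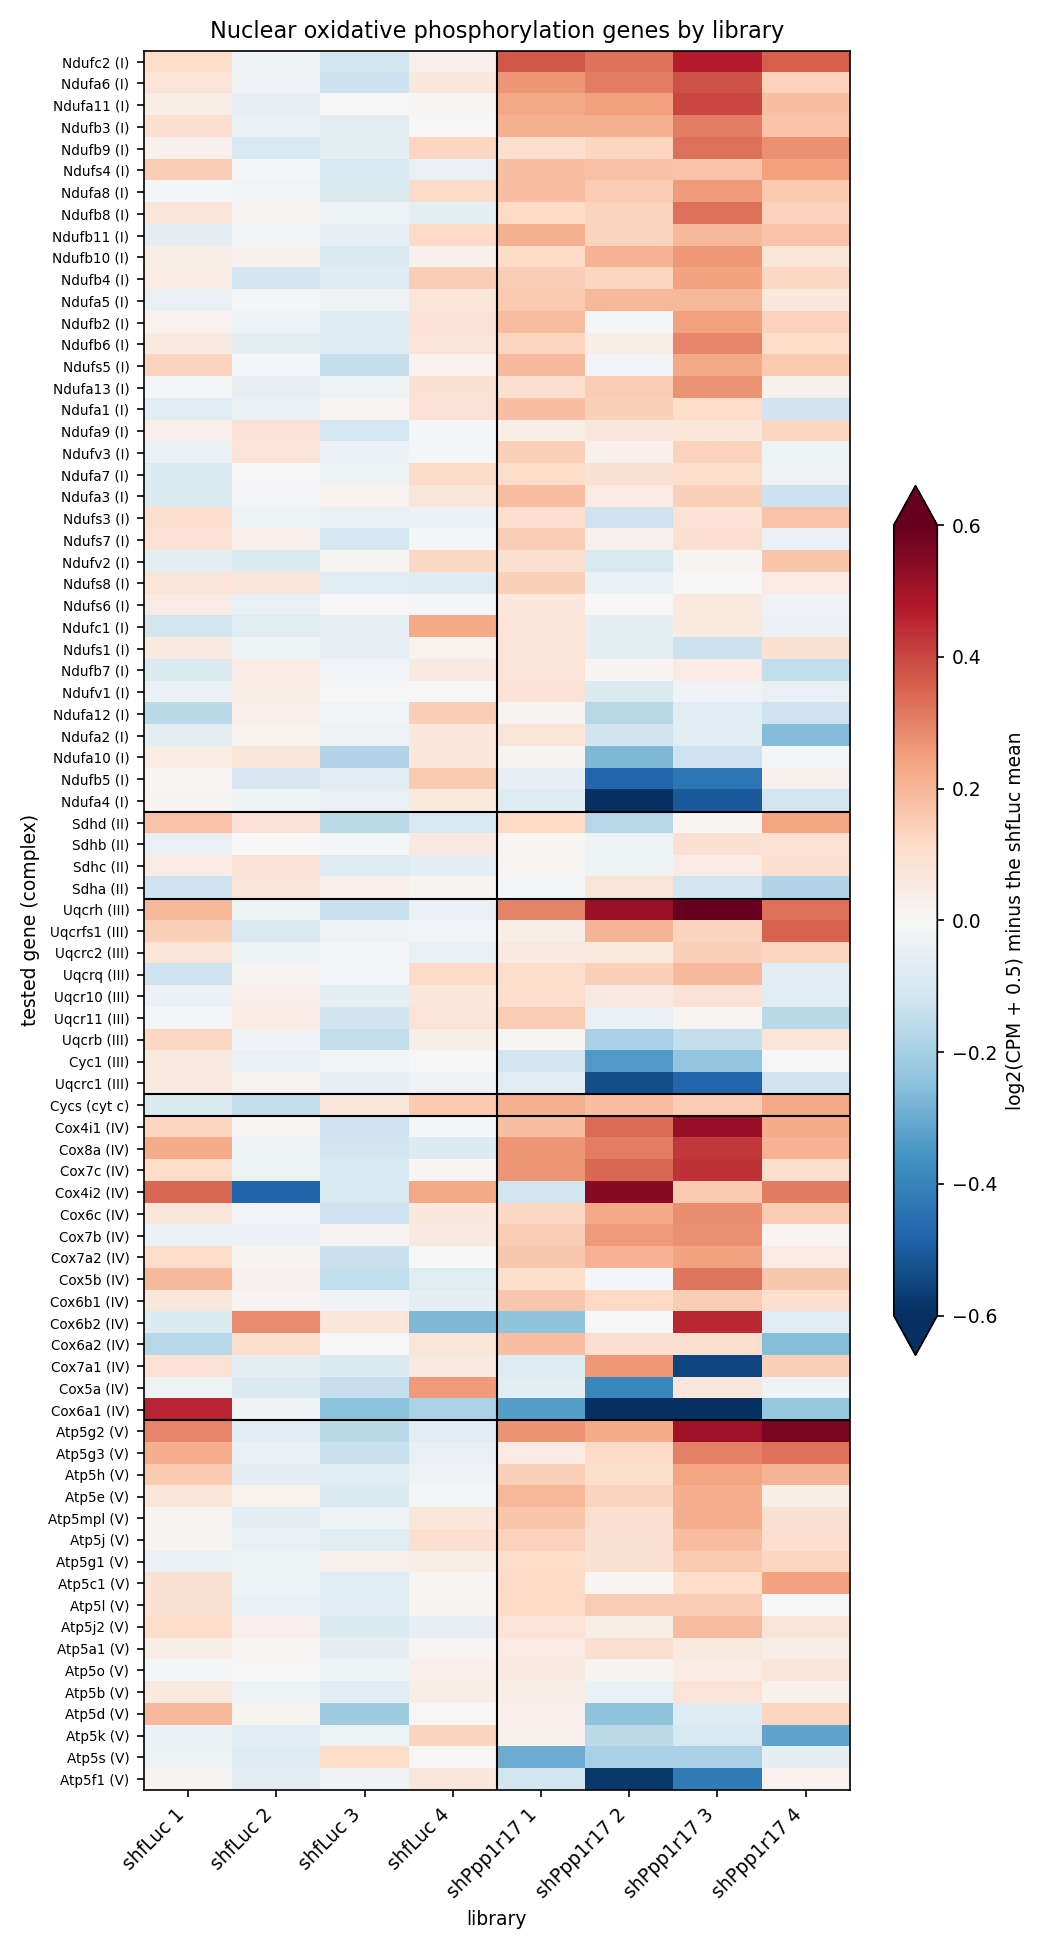
Each row is a tested member (1 is not shown), grouped by complex and ordered by its log2 fold change, each column a library, and the colour log2(CPM + 0.5) minus the mean of the 4 shfLuc libraries (colours end at 0.6 in both directions). In each shPpp1r17 column taken alone most rows are red, though not always the same rows. Of the 81 tested members, 69, 52, 63 and 56 lie above their shfLuc mean in libraries 1 to 4. Ndufa4, Ndufb5, Uqcrc1, Cox6a1 and Atp5f1 are dark blue in libraries 2 and 3.

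Library by library, 69, 52, 63 and 56 of the 81 members stood above their shfLuc mean in shPpp1r17 libraries 1 to 4, beside 53, 30, 10 and 53 in shfLuc libraries 1 to 4. The median deviation from the shfLuc mean was 0.11, 0.07, 0.14 and 0.09 on the log2 scale in the knockdown libraries, and 0.05, -0.02, -0.06 and 0.03 in the controls. The 4 knockdown medians lay above the 4 control medians. The SD of the members' deviations was 0.28 in shPpp1r17 libraries 2 and 3, 0.12 and 0.15 in libraries 1 and 4, and between 0.06 and 0.11 in the controls. Members thus scattered most in the 2 libraries with the least Ppp1r17, as did all genes, whose SD was 0.50 and 0.49 there, 0.37 and 0.38 in libraries 1 and 4, and between 0.22 and 0.27 in the controls.

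Complex I takes electrons from NADH, and its members divide into 7 core subunits that carry the flavin and iron-sulphur centres (Ndufv1 and Ndufs1 among them) and accessory subunits around them. Of its 36 genes, 3 rose and 0 fell (12 higher and 1 lower at an unadjusted p under 0.05; DESeq2 called 4 higher and 0 lower), all 3 of them accessory. The median log2 fold change was 0.14 over the 29 accessory and 0.05 over the 7 core genes, and -0.09 and -0.07 after removal of the length and GC trend. The difference between these classes was not tested.

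Ndufc2, an accessory subunit of the membrane arm (chromosome 7, 97400003 to 97407802 in GRCm38), stood at 259.7, 236, 223 and 246 CPM in shfLuc libraries 1 to 4 and at 312, 302, 334 and 309 CPM in shPpp1r17 libraries 1 to 4. All 4 knockdown libraries lay above all 4 controls, with library 3 highest. It rose by 0.38 on the log2 scale (SE 0.07, edgeR adjusted p = 0.0124), the smallest adjusted p among the members. Ndufa11, a membrane arm subunit needed for stable assembly (chromosome 17, 56717767 to 56722141), stood at 255, 239, 248 and 250.3 CPM in the controls and 291, 294, 327 and 281 CPM in the knockdown libraries. The groups again did not overlap, and the log2 fold change was 0.27 (SE 0.07, adjusted p = 0.0358). Ndufa6, an accessory subunit of the matrix arm (chromosome 15, 82350140 to 82354322), stood at 303, 281, 261 and 299.6 CPM in the controls and 343, 354, 373 and 315 CPM in the knockdown libraries. Its groups were separated by the small step between shfLuc library 1 and shPpp1r17 library 4, and the log2 fold change was 0.27 (SE 0.07, adjusted p = 0.0466).

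Other complex I genes had groups that did not overlap and did not pass the adjusted threshold, among them Ndufb3 (0.23, adjusted p = 0.0701), Ndufs4 (0.19), Ndufa8 (0.18), Ndufb8 (0.18), Ndufb11 (0.18) and Ndufb10 (0.17), as log2 fold changes. Ndufs1, the largest core subunit, had a log2 fold change of 0.00 (SE 0.07). Ndufc1, with the highest mean TPM of the complex at 1376, had a log2 fold change of 0.01 (SE 0.08), and its sign differed between settings.

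**Figure D2:**
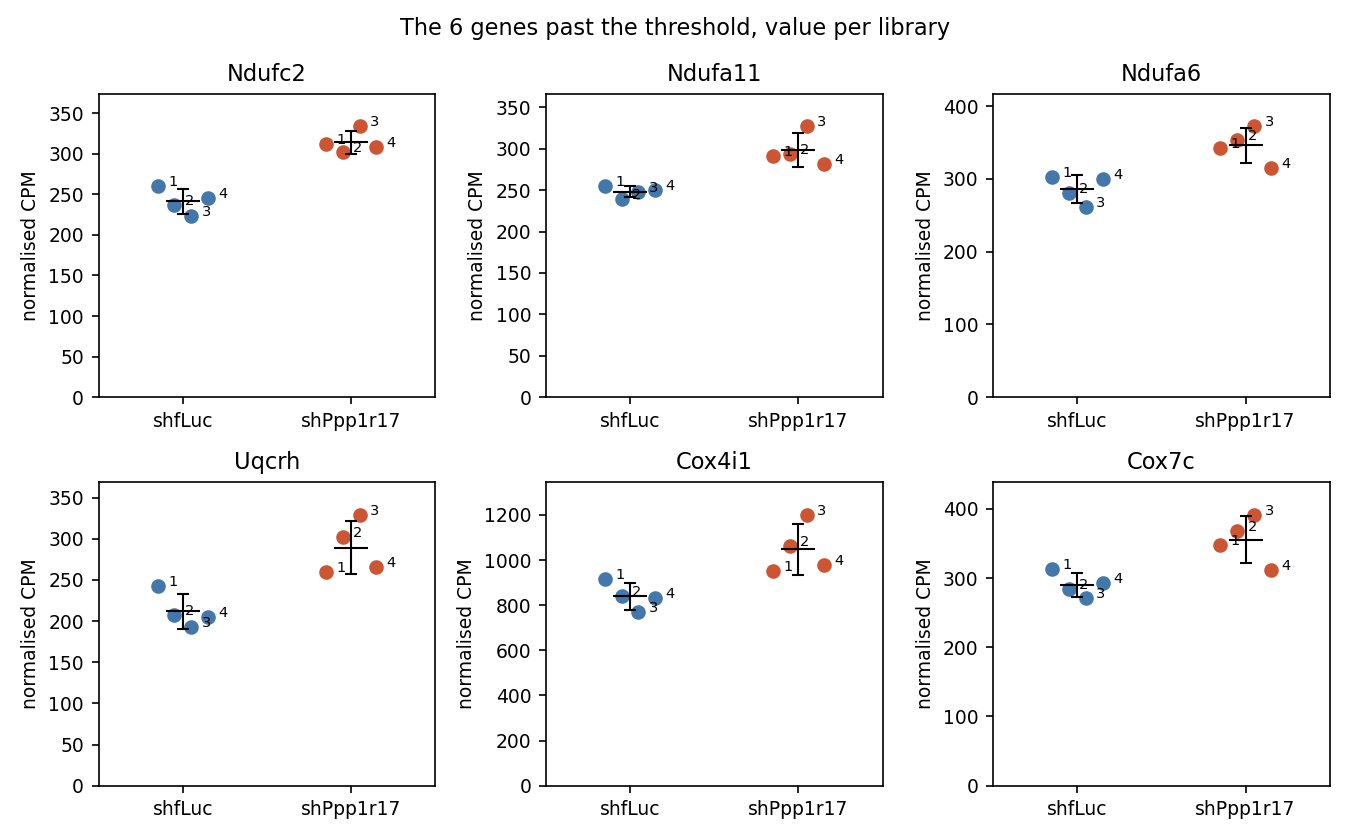
The normalised CPM (vertical axis, from 0) of the 6 members past the threshold is shown for each library, with the library number beside each point and a bar at the mean with 1 SD (n = 4). In Ndufc2, Ndufa11, Ndufa6, Uqcrh and Cox4i1 every shPpp1r17 point lies above every shfLuc point, and in Cox7c library 4 of shPpp1r17, at 312 CPM, lies below library 1 of shfLuc, at 313 CPM.

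Complex II oxidises succinate and is also an enzyme of the citric acid cycle. None of its 4 genes passed (0 at an unadjusted p under 0.05, and 0 by DESeq2), and their log2 fold changes lay between -0.05 and 0.05. Sdha, the flavoprotein, stood at 878, 1008, 978 and 967 CPM in the controls and 949.6, 1013, 883 and 847 CPM in the knockdown libraries, and Sdhb, the iron-sulphur subunit, at 492 ± 13.8 and 506 ± 20.1 CPM (SD, n = 4). Both genes had overlapping groups.

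Complex III passes electrons from ubiquinol to cytochrome c. Of its 9 genes, 1 rose and 0 fell (1 higher and 1 lower at an unadjusted p under 0.05; DESeq2 called 1 higher and 0 lower). Uqcrh, the hinge protein beside cytochrome c1 (chromosome 4, 116066965 to 116075071), stood at 242, 208, 193 and 205 CPM in the controls and 260.0, 302, 329.5 and 266 CPM in the knockdown libraries. Every knockdown library lay above the highest control, libraries 2 and 3 by the most, and the log2 fold change of 0.45 (SE 0.09, adjusted p = 0.0183) was the largest increase among the members. Uqcrc1, a core protein of the same complex, differed in the other direction and is described with the low genes. Cyc1, which encodes cytochrome c1, stood at 35.6, 33.4, 33.9 and 34.3 CPM in the controls and 31.7, 26.9, 29.0 and 34.2 CPM in the knockdown libraries (log2 fold change -0.17, adjusted p = 0.287). Libraries 2 and 3 of shPpp1r17 were its lowest values and library 4 lay among the controls. Uqcr10 had the highest mean TPM of the complex, at 1521, with a log2 fold change of 0.04 (SE 0.07).

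Cycs, the soluble electron carrier, stood at 278, 267, 309 and 329 CPM in the controls and 342, 334, 328 and 346 CPM in the knockdown libraries. Library 3 of the knockdown group lay just below library 4 of the control group, and the log2 fold change of 0.19 (SE 0.07, adjusted p = 0.151) did not pass. Its deposited gene length, 2958 bases, is the longest of the tested members, and its value was still 0.21 after removal of the length and GC trend.

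Complex IV hands the electrons to oxygen. Of its 14 tested genes, 2 rose and 0 fell (7 higher and 1 lower at an unadjusted p under 0.05; DESeq2 called 3 higher and 0 lower), and its median log2 fold change of 0.16 was the highest of the 5 complexes, though it turned to -0.06 with the length and GC trend removed. Cox4i1, the ubiquitous isoform of the subunit that binds ATP as a regulator (chromosome 8, 120668222 to 120674207), was the most abundant member per length, at 2318 TPM on average. It stood at 916, 841, 769 and 829.9 CPM in the controls and 949.7, 1062, 1202 and 976 CPM in the knockdown libraries, without overlap, and rose by 0.32 (SE 0.08, adjusted p = 0.0370). Library 3 of shPpp1r17 was the highest. Cox7c, a small membrane subunit (chromosome 13, 86044816 to 86046904), stood at 313, 284, 272 and 293 CPM in the controls and 348, 369, 392 and 312 CPM in the knockdown libraries, and rose by 0.29 (SE 0.08, adjusted p = 0.0493), close to the threshold of 0.05. Cox8a, the ubiquitous isoform of the smallest subunit, was just outside it, with 245, 206, 194 and 199 CPM in the controls, 252, 260.1, 282 and 242 CPM in the knockdown libraries and a log2 fold change of 0.30 (adjusted p = 0.0564). DESeq2 called Cox8a higher (adjusted p = 0.0154). Cox6c and Cox6b1 had groups that did not overlap, with log2 fold changes of 0.19 and 0.13 and no call.

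Complex V makes ATP. Of its 17 tested genes, 0 passed in edgeR (3 higher and 1 lower at an unadjusted p under 0.05), and DESeq2 called 1 higher, Atp5g2. Its median log2 fold change was 0.11, and -0.11 after removal of the length and GC trend. The c-ring of the proton rotor is encoded by Atp5g1, Atp5g2 and Atp5g3, which differ in their import peptides and yield the same mature protein. Atp5g2 stood at 68.5, 53.2, 49.8 and 53.2 CPM in the controls and 67.2, 65.1, 79.2 and 82.7 CPM in the knockdown libraries, with shfLuc library 1 above shPpp1r17 libraries 1 and 2, and its log2 fold change was 0.39 (SE 0.11, edgeR adjusted p = 0.0581). Atp5g1, at 275 ± 7.03 and 299.6 ± 6.03 CPM (SD, n = 4), had groups that did not overlap (log2 fold change 0.12, adjusted p = 0.246). Atp5g3, at 295 ± 32.6 and 339 ± 31.7 CPM (SD, n = 4), had overlapping groups (log2 fold change 0.20, adjusted p = 0.211). Atp5h, a subunit of the peripheral stalk, stood at 363 ± 27.5 and 408 ± 16.8 CPM (SD, n = 4) with a log2 fold change of 0.17 (adjusted p = 0.168).

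The promoters of the members were searched for words known from nuclear genes of respiration, since the 6 genes that rose belong to 3 complexes. RefSeq promoters (GRCm38.p6, 250 bases before to 50 after the start) matched 68 of the 87 symbols, 5 of them genes that rose. The NRF1 palindrome with any middle base occurred in 17 of the 68 (25%, beside 10.3% of 11975 tested genes with a promoter), the exact palindrome in 5 (7.35%, beside 2.10%), the ETS word CCGGAAG bound by GABPA in 16 (23.5%, beside 2155 of the 11975) and the YY1 word AAGATGGCG in 7 (10.3%, beside 3.11%), on either strand. At least 1 of these words was in 34 of the 68 (50%, beside 28.0%), and the exact palindrome lies within the looser form. Of the 5 genes that rose and have a promoter in the table, 3 held a word (Ndufa11, Ndufa6 and Uqcrh), and Ndufc2 and Cox7c held none. A match describes letters, and no test was made on these shares. The 3 promoters shown are those of Ndufa11 and Uqcrh, which rose, and of Cox6a1, the member with the most negative fold change, which carries both kinds of word, with the matches in capitals.
Ndufa11, chr17:56717512-56717811, plus strand, NRF1 palindrome: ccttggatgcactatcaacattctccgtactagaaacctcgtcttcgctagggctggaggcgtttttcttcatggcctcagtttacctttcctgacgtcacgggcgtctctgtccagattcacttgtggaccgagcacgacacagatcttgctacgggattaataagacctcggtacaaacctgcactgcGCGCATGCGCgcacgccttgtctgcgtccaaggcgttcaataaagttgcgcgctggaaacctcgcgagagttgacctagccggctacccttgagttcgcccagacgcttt
Uqcrh, chr4:116075021-116075320, minus strand, ETS word on the opposite strand: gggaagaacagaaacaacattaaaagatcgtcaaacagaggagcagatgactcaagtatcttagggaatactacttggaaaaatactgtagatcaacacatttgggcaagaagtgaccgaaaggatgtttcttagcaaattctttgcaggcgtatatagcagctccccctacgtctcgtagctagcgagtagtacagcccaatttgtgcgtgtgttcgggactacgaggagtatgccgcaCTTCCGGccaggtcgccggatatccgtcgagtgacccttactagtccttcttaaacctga
Cox6a1, chr5:115348909-115349208, minus strand, NRF1 palindrome, its looser form and the ETS word on the opposite strand: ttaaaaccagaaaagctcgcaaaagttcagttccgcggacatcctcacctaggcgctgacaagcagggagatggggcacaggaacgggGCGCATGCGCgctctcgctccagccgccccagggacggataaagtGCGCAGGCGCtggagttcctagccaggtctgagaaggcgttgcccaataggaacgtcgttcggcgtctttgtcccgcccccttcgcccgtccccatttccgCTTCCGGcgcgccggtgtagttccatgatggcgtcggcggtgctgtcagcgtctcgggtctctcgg

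A few subunit genes stood low in the knockdown libraries 2 and 3 and near control in libraries 1 and 4. The clearest was Cox6a1, the ubiquitous isoform of a complex IV subunit (chromosome 5, 115345642 to 115348981), at 285, 205, 175 and 182 CPM in the controls and 165, 67.0, 83.9 and 177 CPM in the knockdown libraries. Libraries 2 and 3 held 31.7% and 39.6% of the control mean, library 1 lay just below the controls, library 4 lay among them, and shfLuc library 1 was the highest of all. Over all 8 libraries the log2 fold change was -0.78 (SE 0.27, adjusted p = 0.104) and did not pass.

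Ndufa4, counted with complex I by its symbol although the protein is now known as a subunit of complex IV, stood at 419, 406, 403 and 431 CPM in the controls and 393, 266, 292 and 384 CPM in the knockdown libraries. Uqcrc1, a core protein of complex III, stood at 345, 336, 322 and 327 CPM and 318, 229.6, 239 and 305 CPM in the same order. In both genes all 4 knockdown libraries lay below all 4 controls, libraries 1 and 4 only narrowly, and the log2 fold changes were -0.31 (SE 0.11, adjusted p = 0.116) and -0.28 (SE 0.10, adjusted p = 0.114). Atp5f1, the b subunit in the stalk of complex V, stood at 577, 543, 562 and 596 CPM in the controls and 525, 381, 424 and 578 CPM in the knockdown libraries (log2 fold change -0.26, adjusted p = 0.187). Ndufb5, an accessory subunit of complex I, stood at 306, 283, 289 and 338 CPM in the controls and 293, 218, 224 and 308 CPM in the knockdown libraries (log2 fold change -0.22, adjusted p = 0.268). In both, libraries 2 and 3 were the 2 lowest of the 8 and library 4 lay within the control range. Ndufa4, Atp5f1 and Ndufb5 were singled out after their values were seen.

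**Figure D3:**
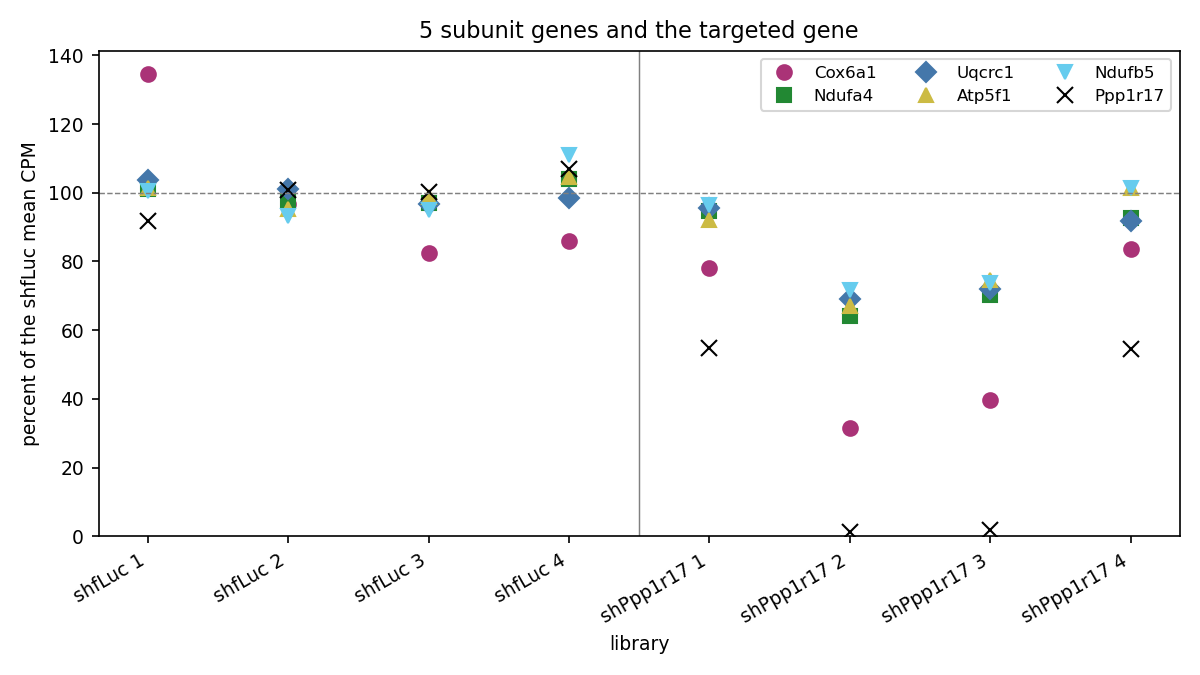
CPM of the 5 low subunit genes and of Ppp1r17 in each library, as a percentage of the mean of the 4 shfLuc libraries (vertical axis, from 0, dashed line at 100). In shPpp1r17 libraries 2 and 3 Ppp1r17 is at 1.29% and 1.94%, Cox6a1 at 31.7% and 39.6% and the other 4 genes between 64.2% and 74.5%, while libraries 1 and 4 hold 54.8% and 54.5% of Ppp1r17.

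With only shPpp1r17 libraries 2 and 3 as knockdown, edgeR called 12 members higher and 5 lower (beside 7.27% and 7.5% of all genes). The 5 were Cox6a1 (-1.49), Ndufa4 (-0.57), Uqcrc1 (-0.50), Atp5f1 (-0.50) and Ndufb5 (-0.46). These libraries were set apart on their values, and the 5 genes were described as low by their values there. The calls are therefore a description and no independent evidence. Among the 12 higher were the 6 named above, Cox8a, Ndufb3, Ndufb10, Cox6c and Cox7b. With libraries 1 and 4 as the only knockdown libraries, 0 members were called in either direction (beside 0.144% higher and 0.061% lower of all genes; 13 members higher and 0 lower at an unadjusted p under 0.05), and no other tool was run there. The values of the same 5 genes were then -0.31, -0.10, -0.10, -0.05 and -0.02, and the median of the members was 0.08 against 0.11 with libraries 2 and 3. Whether the 2 pairs of libraries differ was not tested, because they were set apart on their values.

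Genes called lower in these libraries often hold the word CTCTGATA, or either of its 7-base ends, in the 3' UTR (248 of 436 searched, 56.9%, beside 19.9% of the 14254 genes searched and 7.96% of those called higher). The word was picked on these same libraries, so its share among the lower genes is no independent evidence. Of 80 members searched, 4 held it (5%), and the members' 3' UTRs are short, with a median of 202 bases against 1225 over all genes. The 4 were Cox6a1, Ndufb5, Ndufb2 and Atp5g1, the last 2 only in the longest annotated 3' UTRs of 4012 and 4252 bases. Of the 5 low genes, Cox6a1 and Ndufb5 held a 7-base end in the 3' UTR, Uqcrc1 held the whole word upstream of it, and Ndufa4 and Atp5f1 held neither form in the searched mRNA. Members outside the low genes held upstream matches too, Ndufs1 the whole word and Atp5c1, Atp5g1, Atp5g3, Atp5k and Uqcrfs1 a 7-base end. Over the whole mRNA, 10 of the 80 members held a match (12.5%), beside 34.8% of all genes searched. The 4 sites below (GENCODE M21, GRCm38, 30 bases of the mRNA, match in capitals) show the low genes that hold a match beside the targeted gene, whose own 3' UTR has the whole word. The part of these matches in the low values was not tested.
Cox6a1 3' UTR, chr5:115345709-115345715: ggcgaccattaCTCTGATcttccatccctt
Ndufb5 3' UTR, chr3:32751222-32751228: ctgtatttttgCTCTGATgtacacaagatt
Uqcrc1 upstream of the 3' UTR, chr9:108947675-108947682: aacatctcctaCTCTGATActgggctgctg
Ppp1r17 3' UTR, chr6:56032367-56032374: acttatttagaCTCTGATAcgttttcttat

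Several subunits of complexes IV and V exist as a ubiquitous gene and a tissue isoform, mostly of heart, skeletal muscle, testis or lung. In shares of TPM, the minor isoforms stayed minor in every library. Cox4i2, the lung isoform, made up 0.281 ± 0.0738% and 0.271 ± 0.0613% (SD, n = 4) of the pair with Cox4i1 in shfLuc and shPpp1r17. Cox7a1, the muscle isoform, made up 1.93 ± 0.114% and 1.69 ± 0.519% of the pair with Cox7a2, and Cox6b2, the testis isoform, 1.54 ± 0.266% and 1.41 ± 0.344% of the pair with Cox6b1. The exception was Cox6a2, the muscle isoform, whose share of the pair with Cox6a1 was 4.20%, 6.81%, 7.33% and 7.39% in shfLuc libraries 1 to 4 and 8.80%, 18.3%, 15.1% and 6.02% in shPpp1r17 libraries 1 to 4. Its share was highest in libraries 2 and 3, and the groups overlapped through library 4. Cox6a2 itself stood at 20.5 ± 1.74 and 21.0 ± 2.73 CPM (SD, n = 4), a log2 fold change of 0.04 (SE 0.12). Within the c-ring genes, Atp5g2 held 9.97 ± 0.800% and 11.9 ± 1.18% of the 3, with overlapping groups.

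Summed over all members, the level per library was 19935 ± 602 CPM in shfLuc and 21085 ± 505 CPM in shPpp1r17 (SD, n = 4), 5.77% more. The groups did not overlap on this scale, with the highest control at 20433 CPM and the lowest knockdown library at 20476 CPM, while the shares of reads given above, without TMM factors, overlapped. The same sum of TPM was 51262 ± 1142 and 51978 ± 1027, 1.40% more, with overlapping groups. By complex, the sums of CPM differed by 5.94% in complex I, -0.66% in II, 2.94% in III, 13.4% in IV and 4.06% in V, and the groups overlapped in each. The sums of TPM differed by 0.77%, -5.04%, 0.06%, 6.15% and 0.37% in the same order, again with overlap, so complex IV had the largest difference on both scales.

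**Figure D4:**
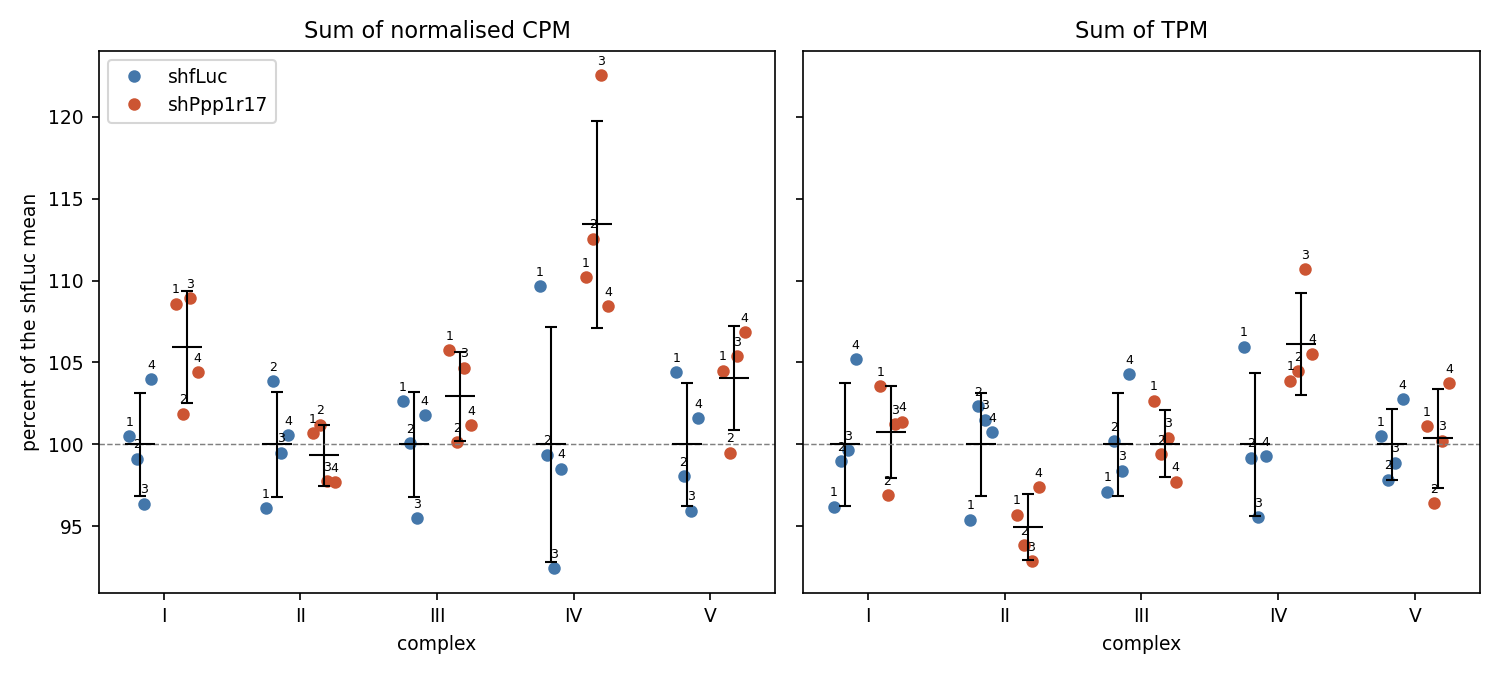
Sum of normalised CPM (left) and of TPM (right) over the members of each complex in each library, as a percentage of the mean of the 4 shfLuc libraries, with library numbers beside the points and bars at the mean with 1 SD (n = 4). On CPM complex IV reaches 108% to 123% in shPpp1r17, while shfLuc library 1 is at 109.7%, and on TPM the groups overlap in every complex.

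Fold changes varied with gene length in these libraries, and the members are short. The median length deposited for the tested members was 680 bases, against 2410 over all genes, and 72.8% of them were under 1000 bases against 11.9%. Over all genes the median log2 fold change went from 0.22 below 500 bases to -0.06 at 4000 bases and above. In matched classes of length the members' medians were close to those of other genes, at 0.15 against 0.16 (500 to 750 bases, 39 members), 0.09 against 0.11 (750 to 1000, 11 members) and 0.05 against 0.05 (1000 to 1500, 14 members). In the shortest class the 9 members had a median of 0.04 against 0.23. With the trend on length and GC content removed from each library, 0 members were called higher (beside 2.45% of all genes; 3 at an unadjusted p under 0.05, with no other tool run on that scale) and 3 lower (beside 2.34%; 24 at an unadjusted p under 0.05), Ndufa4 (-0.52), Atp5k (-0.44) and Ndufa2 (-0.35). The 6 genes that rose then had positive values of 0.16 for Ndufc2, 0.20 for Uqcrh, 0.13 for Cox4i1, 0.05 for Ndufa11, 0.05 for Cox7c and 0.02 for Ndufa6. On log2(TPM + 1), limma called Ndufc2 (0.30, adjusted p = 0.0296) and Uqcrh (0.38, adjusted p = 0.0325) higher and Atp5s (-0.34), which encodes a coupling factor, lower. The source of the length trend was not tested.

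**Figure D5:**
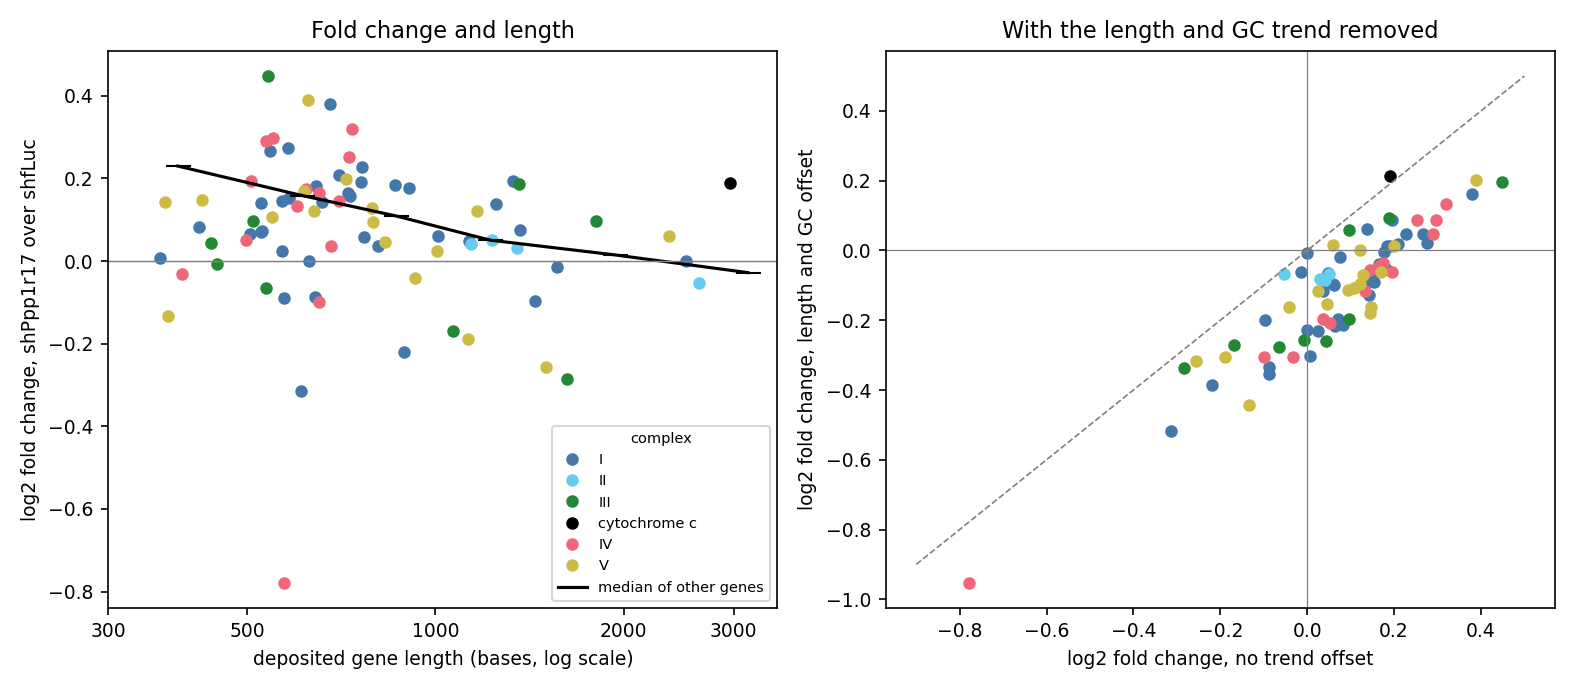
Left, the log2 fold change of each tested member against its deposited length on a log axis, coloured by complex, with the median of all other genes per length class as a black line drawn at the class middle. Right, the log2 fold change without (horizontal) and with (vertical) the length and GC trend removed; nearly all points lie below the dashed line of equality, Cox6a1 is the lowest in both, and the members' median goes from 0.09 to -0.09.

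The calls also rested on single libraries, though not on every one. Without shfLuc library 1, 8 members were called higher and 0 lower. Without shPpp1r17 library 1 there were 5 higher and 2 lower, and without shPpp1r17 library 4 there were 7 higher and 2 lower. The shares of all genes called in those fits are not given here, so these counts alone say nothing particular about the members. Without shfLuc library 2 or library 3, 0 members passed (16 and 13 higher at an unadjusted p under 0.05, and 0 genes passed anywhere), and without shfLuc library 4 or shPpp1r17 library 2 or 3 the only member called higher was Ndufc2 (1 member, beside 1.08%, 1.19% and 0.77% of all genes in the same order), and 0 members were called lower (3 in each at an unadjusted p under 0.05, beside 0.541%, 0.566% and 0.34% of all genes called).

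Subunits that the symbol patterns miss went both ways. Cox7a2l, a factor that joins complexes III and IV into supercomplexes, rose by 0.58 (SE 0.10, adjusted p = 0.0110), and Ndufab1, the acyl carrier protein of complex I, fell by 0.72 (adjusted p = 0.0405). Atpif1, the inhibitor that keeps the ATP synthase from running backwards, had a log2 fold change of 0.16 (adjusted p = 0.161), and it and the rest of that list did not pass. All 13 mitochondrially encoded subunits had negative log2 fold changes, with a median of -0.18; 0 rose and 2 fell, mt-Nd2 (-0.50) and mt-Nd4l (-0.56). Their summed level was 46668 ± 4005 CPM in shfLuc and 41198 ± 6371 CPM in shPpp1r17 (SD, n = 4), lowest in shPpp1r17 libraries 2 and 3 at 77.4% and 77.8% of the control mean, with library 4 at 106% and overlapping groups. Without shPpp1r17 libraries 2 and 3, none of these genes passed, in either list (1 higher and 1 lower of the 6 outside the patterns and 0 higher and 2 lower of the 13 at an unadjusted p under 0.05), the median of the 13 was -0.03 and 9 were negative. The values were then 0.36 for Cox7a2l and -0.59 for Ndufab1. The difference between nuclear and mitochondrial subunits was not tested.

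Of 46 assembly factors, 0 rose and 2 fell, Timmdc1 (-0.91, adjusted p = 0.0239) and Foxred1 (-0.56, adjusted p = 0.0337), both of which serve complex I, and 44 did not pass (2 higher and 4 lower at an unadjusted p under 0.05; DESeq2 called 0 and 3). The 17 regulators of mitochondrial biogenesis, among them Ppargc1a, Nrf1 and Tfam, had 0 calls (0 higher and 3 lower at an unadjusted p under 0.05; DESeq2 called 1 lower) and a median of -0.16, with 15 negative values. Their summed level was 302 ± 6.36 CPM against 268 ± 6.47 CPM (SD, n = 4), without overlap. Their median was still -0.16 without shPpp1r17 libraries 2 and 3 (0 higher and 2 lower at an unadjusted p under 0.05) and with the trend on length and GC content removed. Of 18 genes of the citric acid cycle and pyruvate dehydrogenase, 0 rose and 1 fell, Pdha1 (-0.27, adjusted p = 0.0406), a subunit of pyruvate dehydrogenase. Of 20 carrier, import and membrane genes, 1 rose, Slc25a4 (0.27, adjusted p = 0.0161), the ADP/ATP carrier, and 0 fell. Of 16 tested genes of glycolysis, 0 rose and 1 fell, the neuronal enolase Eno2 (-0.43, adjusted p = 0.0359). The 5 nuclear genes that fell in these lists (Ndufab1, Timmdc1, Foxred1, Pdha1 and Eno2) all held the CTCTGATA word or a 7-base end of it in the 3' UTR. The share was 56.9% over all genes called lower and searched, and 19.9% over all genes searched. Because the word was picked on these same libraries, the matches are no independent evidence. Without shPpp1r17 libraries 2 and 3, edgeR called 0 genes of the assembly, citric acid cycle, carrier and glycolysis lists (at an unadjusted p under 0.05, 2 higher and 4 lower, 1 and 1, 2 and 1, and 0 and 2), and no other tool was run there. Timmdc1 was then at -0.62, Foxred1 at -0.44, Pdha1 at -0.20, Slc25a4 at 0.21 and Eno2 at -0.23.

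Ribosomal protein genes, which are also short and ubiquitous, gave a contrast. Of 81 tested genes of the cytosolic ribosome, 72 rose, with a median log2 fold change of 0.61, and the median was 0.38 with 56 called once the length and GC trend was removed. Without shPpp1r17 libraries 2 and 3, 9 of the 81 were called higher, with a median of 0.38 and 81 positive values. Of 75 genes of the mitochondrial ribosome, 0 passed in either direction (8 higher and 2 lower at an unadjusted p under 0.05; DESeq2 called 3 higher and 0 lower), with a median of 0.03 that turned to -0.10 with the trend removed, and 0 passed without libraries 2 and 3 (5 higher and 1 lower at an unadjusted p under 0.05). The members' median of 0.09 lay between them, and no test of the differences was made.

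Markers of several cell types moved with the groups. In bulk tissue, fewer cells of a type and less RNA per cell cannot be told apart. All 5 blood cell genes rose, with summed levels of 328 to 567 CPM in shfLuc and 638 to 1231 CPM in shPpp1r17, and 7 of 12 microglia and macrophage markers rose, with sums of 417 to 629.9 CPM and 633 to 1173 CPM. Of 9 oligodendrocyte markers 3 rose, with sums of 1316 to 1372 CPM in shfLuc and 1349 to 2392 CPM in shPpp1r17, and libraries 2 and 3 held the 2 highest values. Of 12 neuronal markers, 1 rose and 3 fell, with sums of 5077 to 5226 CPM in shfLuc and 5067 to 5536 CPM in shPpp1r17. Of 8 astrocyte markers 2 rose and 1 fell, of 8 endothelial and pericyte markers 1 rose, and of 4 ependymal markers 1 rose. Of 5 muscle and brown fat genes, whose cells use their own Cox isoforms, 2 were tested and 1 rose, Acta1 (0.89). Of 7 DMH markers, Ppp1r17 among them, 0 passed (0 higher and 3 lower at an unadjusted p under 0.05, and 0 by DESeq2), with sums of 574 to 625 CPM in shfLuc and 290.4 to 533 CPM in shPpp1r17, lowest in libraries 2 and 3. Outside the muscle and brown fat list, every marker was detected in every library. Without shPpp1r17 libraries 2 and 3, the one marker called in any of these lists was Ppp1r17 itself, lower, and at an unadjusted p under 0.05 all 5 blood cell genes and 8 of the 12 microglia and macrophage markers were higher. The part of these cell types in the members' values was not tested.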

How the data were processed

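The 8 DMH samples, 4 per hairpin, went through a PicoPure RNA extraction and SMARTer library preparation, per the labels' protocols. Per the file headers, the authors deposited estimated counts, TPM, length and effective length of 55487 Ensembl genes per library. The tools named in the submitters' processing notes are DRAGEN, bcl2fastq, limma and edgeR, with no role stated. How reads were aligned, and to which build, is not given in the sources used here. Symbols were found for 55141 identifiers.

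The members and gene lists were chosen with earlier results of these data known. Estimated counts were rounded and tested over 17339 genes with edgeR 4.0.16 in R 4.3.3 (quasi-likelihood, TMM, minimum count 10, minimum total 15, group as the single term, Benjamini-Hochberg adjustment over all genes, threshold 0.05). The fit was also run on simulated data. Those held larger changes than the called members show, and no split within the knockdown group, so they do not check the calls made here. Each SE is the log2 fold change over the root of its F statistic. CPM are TMM-normalised. The deposited TPM keep gene length out of the level, CPM do not. Lists were described by counts and medians, with no set test. Values count reads, so PCR copies of a molecule are not told apart.

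Alternatives were RLE factors, library totals, no filter, a minimum count of 50, DESeq2 1.42.0, limma 3.58.1 with voom and on log2(TPM + 1) or log2(TPM + 0.1), an effective length offset, an offset from splines (5 degrees of freedom) on log length and GC content, a replicate block, and libraries left out. Restricting the members was chosen after seeing the data. The genes named were every member past the threshold, in each complex the member with the highest mean TPM and the 2 with the smallest p, the tissue isoform pairs, Cycs, Cyc1 and Atpif1, and up to 4 called genes of each list; others were named after their values were seen. 3' UTRs of at least 50 bases (GENCODE M21, GRCm38) were searched for CTCTGATA and its 7-base ends, and RefSeq promoters (GRCm38.p6) for NRF1, ETS and YY1 words. Coordinates are from GENCODE M21. Values of 1 member are not reported here on their own, and it is counted in the totals.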

Additional observations from a re-analysis of the deposited data

Results flagged for a closer look

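Ndufc1, the complex I gene with the highest TPM, had 1 control library far from the others: shfLuc library 4 stood at 223 CPM, and libraries 1 to 3 at 176, 181 and 184 CPM. The gap took 0.838 of the range of the 4 values, above Dixon's critical value at the 95% level for 4 samples. The 4 shPpp1r17 libraries stood at 201, 183, 198 and 186 CPM. In all, 70 groups of 4 values were examined, and chance alone flags about 1 in 20.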

How the results depend on the processing

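Of 608 comparisons of single genes with an alternative (29 genes), 493 kept direction and side of the threshold, 26 newly passed, 53 no longer passed and 36 changed sign. Over all genes edgeR called 1050; DESeq2 called 1903 (984 higher, 919 lower), the fit without shPpp1r17 libraries 2 and 3 called 37, that without libraries 1 and 4 called 2687, and leaving out 1 library gave 0 to 1548 (0 without shfLuc library 2 or 3, where 1762 and 1628 genes were higher and 1547 and 1518 lower at an unadjusted p under 0.05 and no other tool was run). Members called higher numbered 2 on log2(TPM + 1), 2 on log2(TPM + 0.1), 0 with the length and GC offset, 0 without shPpp1r17 libraries 2 and 3, 12 without libraries 1 and 4, and 0 to 8 with 1 library left out. Members called lower numbered 1 without a filter, 1 on each TPM scale, 3 with the length and GC offset, 5 without shPpp1r17 libraries 1 and 4, and 0 to 2 with 1 library left out. Over all genes, 2.45% were called higher and 2.34% lower with that offset, and 7.27% and 7.5% without libraries 1 and 4. Calls over all genes thus varied with the setting too, so the member counts alone are no result about the members. With the replicate block, 726 genes passed, among them 2 members higher and 1 lower. Deviations of same-numbered samples from their group means correlated at -0.01, 0.04, 0.01 and 0.12. These values cannot show whether same-numbered samples share an animal or a day, because the knockdown deviations also hold the split between its libraries. The labels do not state what the numbers mark.

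The median log2 fold change was 0.00098 on both TPM scales and -0.088 with the length and GC offset over all members, 0.0069 (log2(TPM + 1)) and 0.0070 (log2(TPM + 0.1)), and -0.087 for complex I, -0.040, -0.040 and -0.074 for complex II, -0.027, -0.027 and -0.26 for complex III, 0.074, 0.074 and -0.058 for complex IV, and 0.033, 0.033 and -0.11 for complex V, in the same order. With 1 library left out it was between 0.069 and 0.13 in complex I. The log2 ratio of summed levels was, on TPM, 0.020 over all members, 0.011 in complex I, -0.075 in II, 0.086 in IV and 0.0054 in V. The medians without the members holding the 3' UTR match (0.09) and without the 5 low genes (0.10), both chosen after seeing the data, moved little.

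The length and GC offset turned the sign of Atp5g1 (-0.10), Atp5h (-0.061), Cox6b1 (-0.12), Cox7a2 (-0.046), Cox7b (-0.037), Cox6a2 (-0.20), Cox6b2 (-0.21), Ndufc1 (-0.30), Sdhb (-0.085) and Uqcr10 (-0.26), none of them called. On log2(TPM + 1) and log2(TPM + 0.1) the sign turned for Cox6a2 (-0.038 and -0.038), Cox6b2 (-0.080 and -0.086), Ndufc1 (-0.068 and -0.068), Sdhb (-0.040 and -0.040) and Uqcr10 (-0.027 and -0.027), and without a filter for Ndufc1 (-0.00089). Without shPpp1r17 libraries 2 and 3 it turned for Cox6a2 (-0.033), Cox6b2 (-0.20) and Cox7a1 (0.045), and without libraries 1 and 4 for Ndufc1 (-0.0043). With 1 library left out, values ran from -0.020 to 0.13 for Cox6a2, -0.14 to 0.17 for Cox6b2, -0.17 to 0.14 for Cox7a1 and -0.030 to 0.090 for Ndufc1. The cause of these changes was not tested. At 4 libraries per group the smallest exact p is 0.0286.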
